A study of Arabidopsis thaliana with 6 samples.

Results

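The TRM genes (TON1 Recruiting Motif) encode plant proteins, some of which bind microtubules at the cell cortex. In distal leaves of Arabidopsis thaliana, 8 of these genes were measured here. The members are the genes whose symbol is TRM followed by digits and whose annotation names the TON1 recruiting motif, each represented by its brightest probe set. They are TRM15, TRM18, TRM19, TRM20, TRM21, TRM22, TRM26 and TRM28, out of 8854 genes with a probe set that names a single gene. The RefSeq gene table annotates 34 genes with the motif, of which 29 carry a TRM symbol and 5 another symbol. The 26 others, among them TRM1 and TRM2, which are better known as LONGIFOLIA2 and LONGIFOLIA1, are not analysed here because no named probe set stands for them. Each member had 1 probe set, so the choice of the brightest left nothing out. TRM82 also matched by its letters, but it is annotated as a tRNA modification gene and was kept apart.

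Col-0 plants of the Columbia ecotype, 3 to 4 weeks old per the growth notes, were kept at 22 degrees C, 65% relative humidity and a photoperiod of 14 h. A primary leaf received either leaf exudate with MgCl2 (mock) or the same exudate with glycerol-3-phosphate (G3P). G3P is a small phosphorylated metabolite used in lipid synthesis. Leaves away from the infiltrated one were collected 24 h later, so both groups had received exudate and no untreated plants were included. Each group had 3 replicates, each from its own set of plants and on its own Affymetrix ATH1 array.

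In land plants the side of the cell facing the wall carries an ordered layer of microtubules that guides cellulose deposition and so the direction of cell growth. TRM proteins carry short conserved motifs, 1 of which binds the centrosome-related protein TON1. Some of them bring TON1 and a protein phosphatase of the PP2A class, whose regulatory subunit is TON2 (FASS), to these microtubules. The same complex is needed for the preprophase band, the ring of microtubules that marks the future division plane, and relatives of the family in rice and tomato affect grain and fruit shape.

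Median signals of the 6 arrays lay between 291 and 338 over 16129 probe sets, and having 6 arrays limits how precise any value can be. G3P replicate 3 stood apart: its r with the others, taken across probe sets (not independent replicates), was 0.842 to 0.913, against 0.930 to 0.961 among the other 5. It lay more than 1 log2 unit outside the range of the others for 1223 probe sets, against 42 to 186 for each other array. Leaf genes were bright on all arrays: RCA, LHCB4.1, LHCB4.2 and PSAN, 4 of 6 leaf markers with a named probe set, summed to signals of 81985 to 100703 in mock and 34741 to 79929 in G3P leaves, lowest on G3P replicate 3. The root gene PYK10, 1 of 2 root markers, had signals of 8.56 to 92.2, and neither flower marker had a named probe set. In such whole-leaf samples, fewer cells that use a gene and less RNA per cell cannot be told apart.

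All 8 TRM genes had a negative difference between G3P and mock leaves, with a median of -0.42 on the scale of log2(signal + 16). TRM18, however, turned positive with quantile normalization, centring on array medians or array quality weights. None of the 8 passed the limma test when adjusted by Benjamini-Hochberg over the 16129 probe sets with deposited values. Each had a limma adjusted p of 0.912 or more. Of all probe sets, 53.5% had a negative difference and the median was -0.03. The share of all probe sets that passed was 0%, that is 0 of 16129, while 496 (3.08%) had an unadjusted p under 0.05. The 2 members with the most negative values were TRM22 and TRM20, at -1.22 and -1.10, and TRM18 had -0.02. A difference of -1 or lower was found for 2.13% of all probe sets. The family was selected on its differences between the groups of these same arrays, so they are given as a description and do not support a change.

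**Figure D1:**
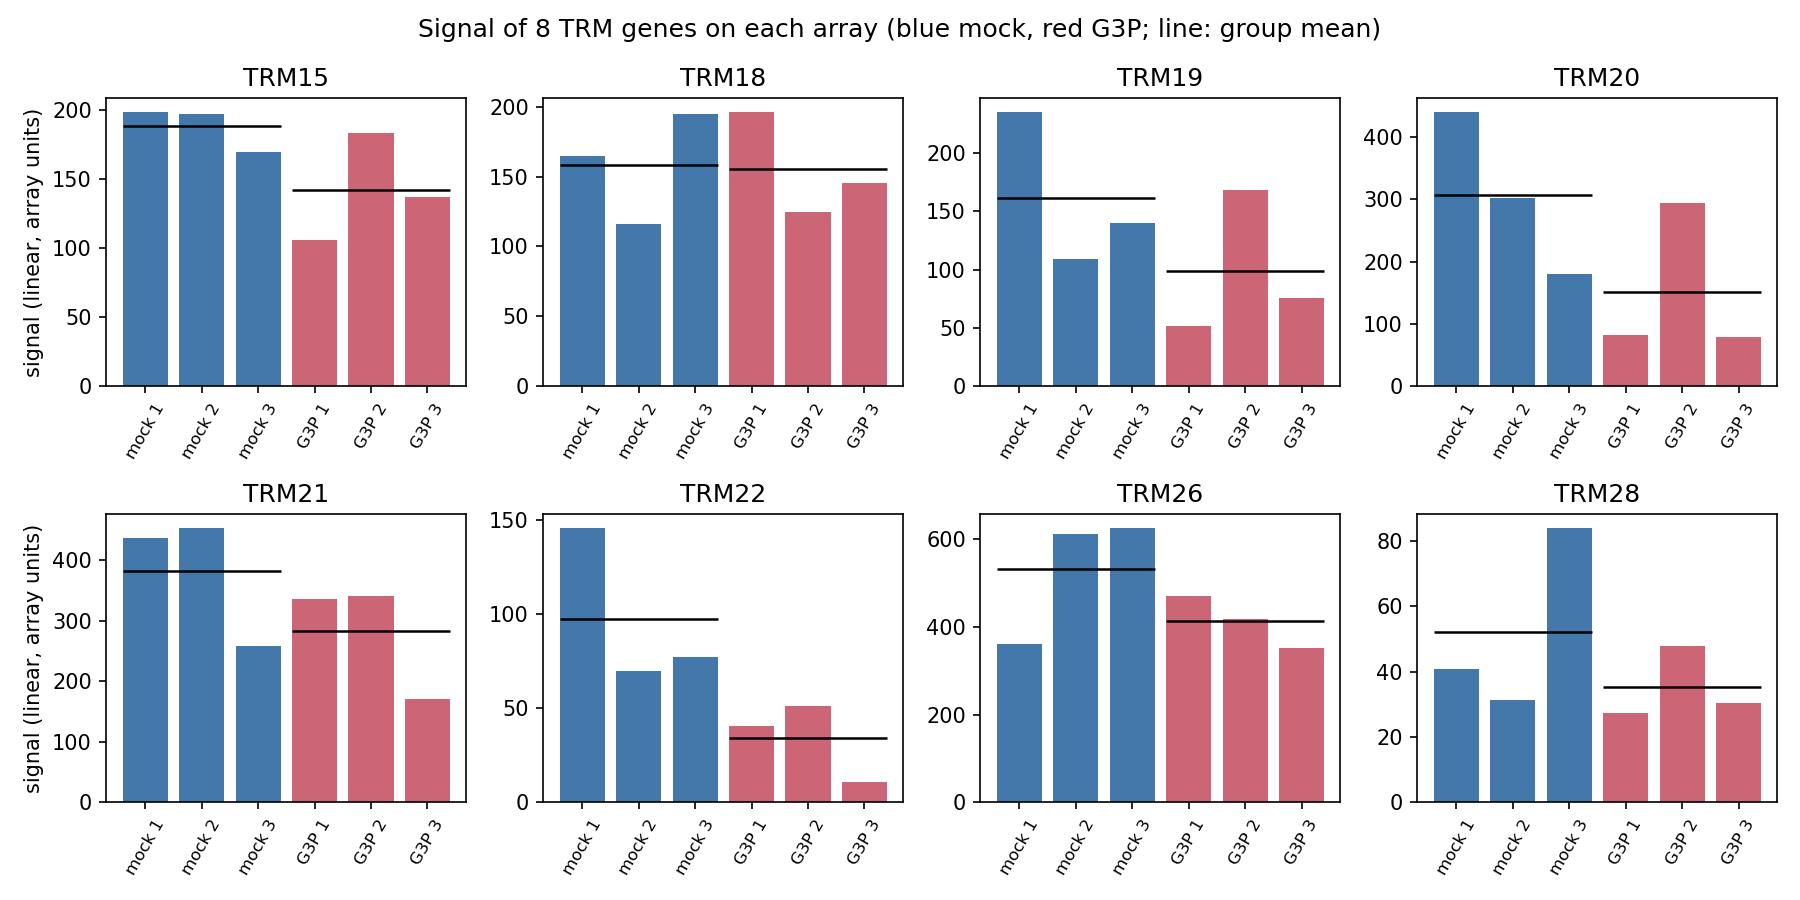
Linear signal of the 8 TRM genes (vertical axes, each from 0) on the 3 mock arrays (blue) and the 3 G3P arrays (red), with a line at each group mean. TRM22 is the gene whose groups do not overlap, and TRM20 and TRM19 are low on G3P replicates 1 and 3 but not on replicate 2.

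TRM20 (AT4G28760) had signals of 441, 302 and 180.0 on mock replicates 1, 2 and 3. On G3P replicates 1, 2 and 3 it had 82.0, 293 and 79.8. G3P replicates 1 and 3 lay below every mock array, whereas G3P replicate 2 lay among them, so the groups overlapped. On the log2 scale mock leaves had 8.25 ± 0.61 and G3P leaves 7.16 ± 0.97 (mean ± SD, n = 3 each). The difference was -1.10 ± 0.52 (SE), with a 95% interval of -2.29 to 0.10. The median signal was 3.68 times as high in mock as in G3P leaves, the G3P median being 1 of its 2 low arrays. Without G3P replicate 2 the difference was -1.66, and with any other single array left out it ran from -1.42 to -0.81.

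TRM22 (AT1G67040) was the member whose groups did not overlap. Its signals were 146, 69.8 and 77.1 on mock replicates 1, 2 and 3. They were 40.8, 51.0 and 11.0 on the G3P arrays in the same order. Every G3P array was below every mock array, with the highest on mock replicate 1 and the lowest on G3P replicate 3. Mock leaves had a log2 level of 6.77 ± 0.50 and G3P leaves 5.55 ± 0.70 (mean ± SD, n = 3 each), and the difference was -1.22 ± 0.45 (SE), with a 95% interval of -2.27 to -0.17 that takes no account of how many probe sets were tested. Groups were separate in this direction for 4.37% of all probe sets. The gene is dim, and its value moved with the pseudocount, from -1.65 with 1 to -0.71 with 64. It was -0.82 without G3P replicate 3 and -1.48 without G3P replicate 2.

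TRM19 (AT3G53540) had signals of 236, 109 and 140 on the mock arrays. It had 51.6, 169 and 76.1 on the G3P arrays, low on replicates 1 and 3 as for TRM20, and the groups overlapped. Its difference was -0.70 ± 0.44 (SE), from levels of 7.41 ± 0.51 (mock) and 6.71 ± 0.74 (G3P; mean ± SD, n = 3 each). The value was -0.38 without G3P replicate 1 and -1.11 without G3P replicate 2.

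TRM15 (AT4G00440) varied less, with 199, 197 and 170 on the mock arrays. On the G3P arrays it had 106, 184 and 137, and again replicates 1 and 3 were below all mock arrays while replicate 2 was within their range. Its difference was -0.40 ± 0.27, -0.22 without G3P replicate 1 and -0.58 without G3P replicate 2. TRM15, TRM19 and TRM20 thus shared low values on G3P replicates 1 and 3, with a Pearson r of 0.875 to 0.921 between their log2 signals over the 6 arrays, given as a description of genes set side by side after their values were seen.

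TRM21 (AT5G43880) had another order, with 436, 453 and 258 on the mock arrays. On the G3P arrays it had 335, 341 and 171, so that replicate 3 was the lowest of each group and the groups overlapped. Its difference of -0.44 ± 0.35 (SE) became -0.13 when G3P replicate 3 was omitted and -0.69 when mock replicate 3 was.

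TRM26 (AT2G17550) had 360, 610 and 624 on the mock arrays. It had 469, 418 and 351 on the G3P arrays. Mock replicate 1 lay among the G3P values, the difference was -0.32 ± 0.27, which became -0.57 without mock replicate 1 and -0.19 without mock replicate 3.

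TRM28 (AT5G03670) was dim on all arrays, with 40.9, 31.4 and 84.0 on the mock arrays. It had 27.3, 48.0 and 30.3 on the G3P arrays, and apart from mock replicate 3 the values of the groups were intermixed. The difference of -0.36 ± 0.40 was -0.04 without that array and -0.58 without mock replicate 2. TRM22 and TRM28 were the 2 members among the dimmest 25% of probe sets.

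TRM18 (AT2G39435) had 165, 116 and 195 on the mock arrays. It had 196, 125 and 146 on the G3P arrays, its highest value being on G3P replicate 1, where TRM15, TRM19 and TRM28 were lowest. Its difference was -0.02 ± 0.29, with a 95% interval of -0.69 to 0.66. For 2 of the 8 members, TRM18 and TRM26, that interval lay within 2-fold in either direction, as for 52.6% of all probe sets, so a 2-fold difference was not excluded for the others. TRM82, the tRNA modification gene that shares the letters of the symbol, had 0.31 ± 0.35.

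**Figure D2:**
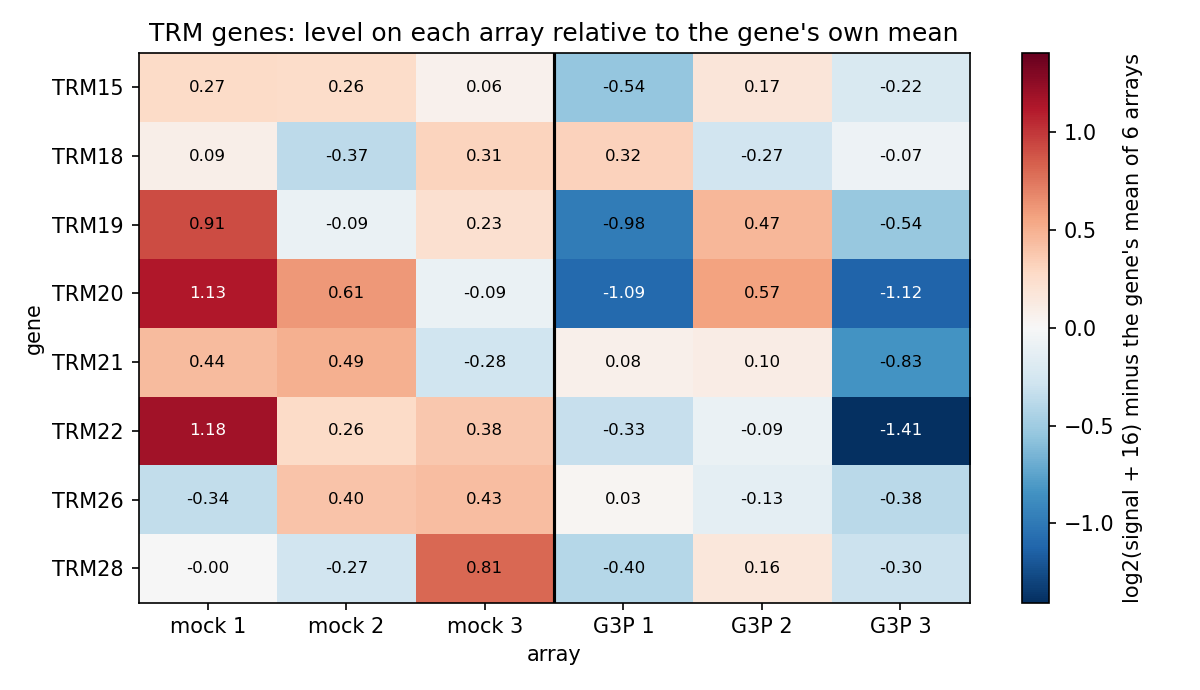
Level of each TRM gene (rows) on each array (columns) as log2(signal + 16) minus the gene's own mean over 6 arrays, with red above and blue below that mean. G3P replicate 3 is below the mean for all 8 genes, and G3P replicate 1 is low for TRM15, TRM19 and TRM20 but high for TRM18.

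Across the family, the array with the lowest value was G3P replicate 3 for 4 genes (TRM20, TRM21, TRM22 and TRM26) and G3P replicate 1 for 3 genes (TRM15, TRM19 and TRM28). For TRM18 it was mock replicate 2. G3P replicate 3 was the lowest of all arrays for 28.0% of all probe sets. The median deviation of the 8 genes from their own means was -0.46 on G3P replicate 3, -0.36 on G3P replicate 1 and 0.13 on G3P replicate 2, against 0.36, 0.26 and 0.27 on mock replicates 1, 2 and 3. Over all probe sets the same medians lay between -0.05 and 0.07. G3P replicate 2 therefore differed from the other 2 G3P arrays in the direction of mock. Without G3P replicate 3 the median difference of the family was -0.34, with 7 of 8 negative, and without G3P replicate 2 it was -0.59, also with 7 of 8 negative.

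Some genes of other kinds were low on the same arrays. The leaf gene RCA, the activase of Rubisco, had 21317, 15872 and 14827 on the mock arrays. On the G3P arrays it had 8959, 17040 and 10471, low on replicates 1 and 3 and within the mock range on replicate 2. Of the other leaf genes, PSAN and LHCB4.2 did not share this on G3P replicate 1. PSAN had 22737 there, its highest value, and LHCB4.2 had 25116 against a lowest mock value of 21807. LHCB4.1 had 23118 on that array, only just below its lowest mock value of 23242. On G3P replicate 3 these 3 genes had 5490, 7096 and 11684 in the same order, each its lowest value. MCM7, a subunit of the replicative helicase, had 219, 119 and 150 on the mock arrays. On the G3P arrays it had 34.8, 204 and 41.7, again low on replicates 1 and 3 and within the mock range on replicate 2, as for TRM20. Of 5 markers of dividing cells 3 had a named probe set. Besides MCM7 these were the Aurora kinase genes AUR1 and AUR2, with positive differences of 0.44 ± 0.30 and 0.48 ± 0.64. AUR1 had 76.4, 75.0 and 87.7 on the mock arrays. On the G3P arrays it had 96.4, 161 and 94.1, each above every mock value, whereas the groups of AUR2 overlapped. The 3 dividing-cell genes together summed to signals of 237 to 387 in mock and 162 to 436 in G3P leaves. CYCB1;1 and KNOLLE, which define dividing cells more closely, had no named probe set. Guard cell markers GASA9 and FAMA, 2 of 3 listed, summed to 558 to 1002 in mock and 450 to 1292 in G3P leaves. The part that cell makeup and the state of the plants on each array have in the TRM values was not tested.

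Of the proteins that work with the TRM family, TON1B was the 1 gene measured among 11 genes for TON1, TON2 and PP2A subunits. TON1B (AT3G55005), which TRM proteins bind, had signals of 476, 464 and 550 on the mock arrays. It had 472, 432 and 274 on the G3P arrays, with replicate 3 far below the others and replicate 1 within the mock range. Its difference was -0.36 ± 0.26 (SE, limma, adjusted p = 0.912), and -0.13 without G3P replicate 3.

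Among tubulins and other microtubule genes, 9 of 31 listed genes had a named probe set. All 9 had negative differences (8 after centring on array medians or with array quality weights), against 53.5% of all probe sets. Their median difference was -0.40, and 0 passed in either direction (0% of all probe sets passed). TUB6, a beta-tubulin gene, had 4045, 2606 and 2079 on the mock arrays. On the G3P arrays it had 1884, 2706 and 830, with a difference of -0.78 ± 0.44 (SE). GCP2, a subunit of the gamma-tubulin complex that starts new microtubules, had -0.41 ± 0.28, the alpha-tubulin gene TUA6 -0.40 ± 0.29 and the beta-tubulin gene TUB5 -0.60 ± 0.45. TUB5 had 990 on G3P replicate 3 against 2936 to 3804 elsewhere. The other 5, TUB1, TUB7, TUB9, TUA1 and SPR1, had differences from -0.66 to -0.02, and each of the 5 turned positive with at least 1 array left out. On G3P replicate 3, 8 of the 9 genes were lower than on every other array, as were 28.0% of all probe sets. Without that array 5 of 9 differences were negative, with a median of -0.02, and TUB5 had -0.02, TUA6 -0.18, GCP2 -0.25 and TUB6 -0.31. TUA6 had -0.20 and TUB6 -0.52 without mock replicate 1.

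**Figure D3:**
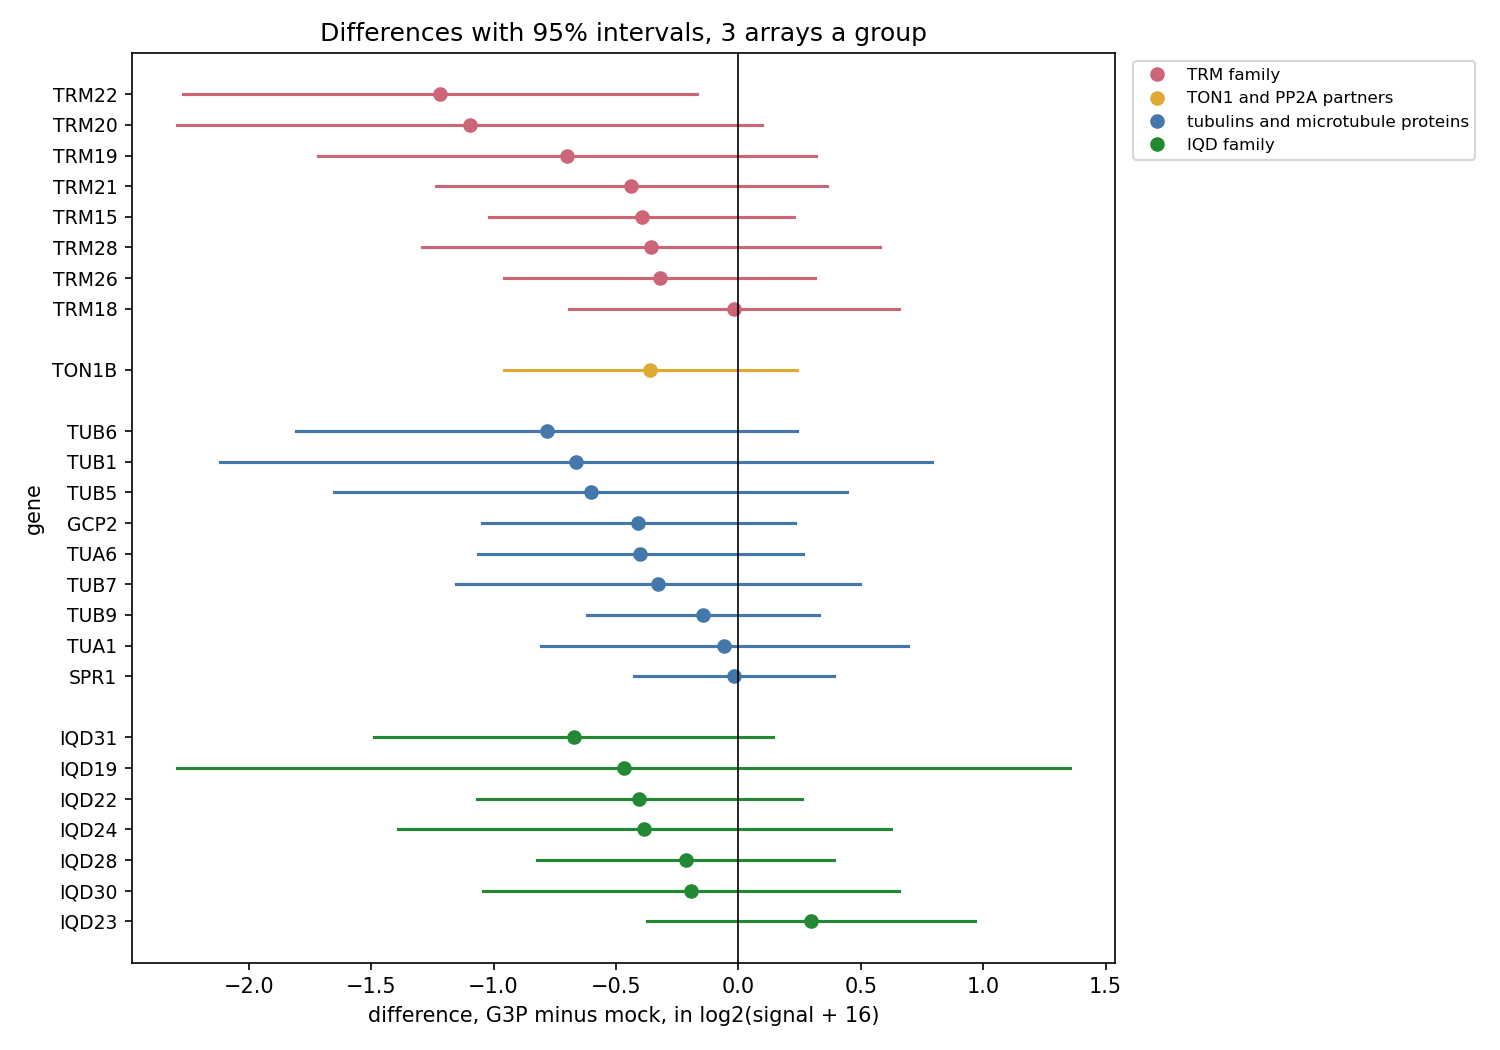
Difference between G3P and mock leaves in log2(signal + 16) (points) with 95% intervals of the limma fit (lines) for the 8 TRM genes, TON1B, 9 microtubule genes and 7 IQD genes, 3 arrays a group. TRM22 is the gene here whose interval, unadjusted for the number of probe sets, does not include 0.

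IQD proteins bind calmodulin and many of them sit on microtubules. Of 24 IQD genes 7 had a named probe set, and 6 of them had negative differences (4 with array quality weights), against 53.5% of all probe sets. The median was -0.38, and 0 passed in either direction. That median was -0.05 with array quality weights, -0.14 without mock replicate 1 and -0.60 without G3P replicate 2. IQD31 had 778, 629 and 676 on the mock arrays. It had 348, 761 and 293 on the G3P arrays, low on replicates 1 and 3 as for TRM20, with a difference of -0.67 ± 0.35 (SE). IQD22 had -0.40 ± 0.29, IQD24 -0.38 ± 0.44 and IQD23 0.30 ± 0.29. Without G3P replicate 3, 4 of the 7 were negative, and IQD31 had -0.41 and IQD23 0.58. Without G3P replicate 1, IQD24 had -0.02 and IQD23 0.12, and IQD22 had -0.24 without mock replicate 2. OVATE family genes, whose products bind TRM proteins in tomato, had no named probe set among 18 listed.

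The genes most like TRM20 over the 6 arrays, among 6538 with a mean log2 signal of at least 7, were AT4G02480 (Pearson r = 0.999), AT3G33530 (r = 0.998) and AT5G42220 (r = 0.996). Their differences were -0.60 ± 0.32, -0.71 ± 0.39 and -0.90 ± 0.49 (SE). An r over 0.9 with TRM20 was found for 353 of the 6538 genes. For TRM22 the 3 genes were KICP-02 (AT3G50240), a kinesin gene, with r = 0.989, PRA1.F1 with r = 0.982 and GCP2, described above, with r = 0.979. KICP-02 had a difference of -1.20 ± 0.49 and PRA1.F1 one of -0.87 ± 0.43. An r over 0.9 with TRM22 was found for 157 of 6539 genes. The 6 points share their groups and arrays, G3P replicate 3 among them, so these values describe the arrays as well as the genes.

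**Figure D4:**
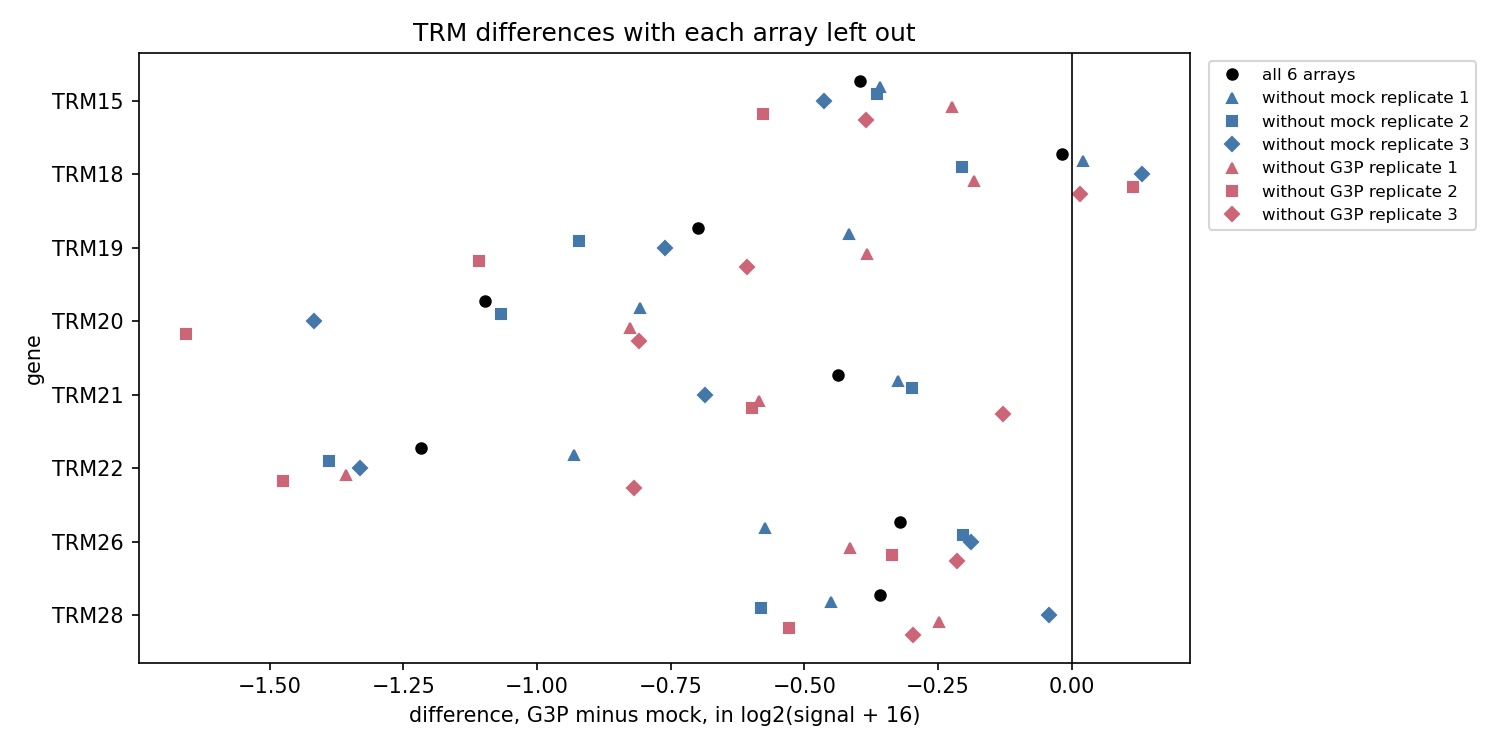
Difference between G3P and mock leaves in log2(signal + 16) for each TRM gene with all 6 arrays (black) and with each mock (blue) or G3P (red) array left out. TRM20 and TRM22 stay at -0.81 or lower in each case, and TRM18 lies on both sides of 0.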

How the data were processed

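RNA was prepared with Trizol for biotin labelling, per the labels' protocols. Each probe set has 1 deposited intensity for every array, not logged, and the authors' signals came from Affymetrix Expression Console 1.0, per the submitters' processing notes. Their summarization and scaling were not given in the sources used here. Trimmed means (2% at each end) were 747 to 754. The outlying G3P replicate 3 had 748, so this common level does not show that the arrays are alike.

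No further normalization was applied, the spread of array medians being 0.206 in log2(signal + 16). All 16129 probe sets with deposited values were fitted with limma 3.58.1 in R 4.3.3 (eBayes with a variance trend, no covariates). The threshold was 0.05 on the Benjamini-Hochberg adjusted p. The rank-sum test of the study's design cannot go below an exact two-sided p of 0.1 with 3 against 3, so it served as an alternative. The fit was also run on simulated data, to check that differences put in were recovered on average. The simulated noise was independent between arrays and probe sets, with no outlying array such as G3P replicate 3. It therefore cannot show how the calls hold on these arrays. The pseudocount of 16 sets a floor of 4 and understates differences of dim genes.

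Genes were named by the platform annotation (8950 probe sets with 1 gene, 8911 matched to RefSeq, TAIR10.1, for symbols). The rule named every TRM gene and measured complex partner, up to 4 genes of each other list by smallest p, and the 3 genes most like TRM20 and TRM22. Leaf, dividing-cell, guard-cell, flower and root markers, and the genes that follow the same arrays, are given as context. TUB1, TUB7, TUB9, TUA1 and SPR1 were named outside the rule after their values were seen. Members and lists were chosen with earlier results of these data known. No sequences or coordinates were used.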

Additional observations from a re-analysis of the deposited data

How the results depend on the processing

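With limma, 0 probe sets passed under all other settings and with each array left out, and the smallest adjusted p was lowest (0.114) under array quality weights and highest (0.9996) when mock replicate 1 was omitted. By its size the exact rank-sum test could give no call. For the 22 named TRM, partner, microtubule and IQD genes, 226 of 242 values kept their direction over the 11 settings that can move a difference; the other 4 settings leave it as it is by construction. The 16 others came from 6 genes. TRM18 (-0.02) had 0.091 after quantile normalization, 0.025 after centring on array medians, 0.12 with array quality weights, and was positive without mock replicates 1 or 3 or G3P replicates 2 or 3, the range with single arrays left out being -0.21 to 0.13. SPR1 had 0.024 after centring on array medians and 0.058 with array quality weights, and -0.073 to 0.033 with arrays left out. The ranges with arrays left out were -0.27 to 0.000595 for TUB9, -0.36 to 0.23 for TUA1, -0.62 to 0.022 for TUB7 and -1.27 to 0.087 for TUB1. The median TRM difference of -0.42 ran from -0.59 to -0.34 with arrays left out, and was -0.40 with TRM82 added, a choice made after the data were seen. The counts of negative differences by setting were also added then, and of 9 microtubule genes 5 to 9 were negative with arrays left out, 5 of them without G3P replicate 3. Leaving out the dimmest 25% removed TRM22 and TRM28. With the replicate number as a block the fit called 0 probe sets, and the number at an unadjusted p under 0.05 was 685, against 496 without it. No label says that the replicate numbers mark shared plants, so the numbers were not taken to pair the plants. Deviations of same-numbered arrays correlated at 0.0061, -0.102 and 0.314, which with so few arrays cannot decide whether they were paired. Each member had 1 probe set and no gene known as TRM only by a synonym was measured, so these alternatives changed nothing.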
